A study of Homo sapiens with 26 samples.

Results

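The 39 genes described here encode the proteins that copy DNA in S phase, from the helicase and its loading factors to the polymerases, the nucleotide-making enzymes and the factors that restore chromatin behind the fork. They are a list of names, drawn up with earlier results of these data known, and each was represented by the probe set with the highest mean signal among those that read that gene alone. All 39 of 39 were found among the 19775 genes with such a probe set, all 39 passed the filter on dim probe sets that left 15124 genes, and none was at the floor on any array. RNA of 786-O cells was measured on 26 Affymetrix U133 Plus 2.0 arrays. This established human clear cell renal carcinoma line lacks working VHL, which targets HIF-alpha subunits for destruction. The titles give 8 groups of 3 arrays and 2 single arrays. Blk was taken as untreated cells and 40, 41, 76 and 77 as the 4 compounds that inhibit HIF-2a, with DMSO as their vehicle, by elimination from the text on the study's design. In other work PRC3 and WT8 are sublines of 786-O, with an empty vector and with wild-type VHL, but these labels do not explain the names, and such a subline may be 1 clone. The names pTR and pTV, the doses and the treatment times are not explained in the sources used here. No source tells whether the 3 arrays of a group stem from 3 cultures, and the p-values then cover the spread between arrays alone, which may be technical.

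Replication starts at origins, where the origin recognition complex, CDC6 and CDT1 load the MCM helicase in G1. CDC45 and the GINS complex then turn the loaded helicase into the active one, and the polymerases follow with the sliding clamp PCNA. Many of these genes are transcribed together late in G1 by E2F factors, which the RB protein holds back until cyclin-dependent kinases, among them those driven by cyclin D1, phosphorylate it. Cells that leave the cycle lower the RNA of most of these genes.

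Of the 26 arrays, 24 had deposited mean signals between 142.78 and 142.79, while replicates 2 and 3 of compound 40 had means of 165.871 and 173.725 and had been scaled in another way. In WT8 replicate 3 the 3 prime over 5 prime signal ratio of ACTB was 2.37 and that of GAPDH 1.32, against at most 1.39 and 1.06 elsewhere. The kidney markers PAX8 (761 to 1270) and PAX2 (74.0 to 177) were read on all 24 arrays of the 8 groups, as was VIM (7210 to 8710). Of the other markers of a renal carcinoma line, KRT8, KRT18 and EPAS1 were also read on every array, CDH6 ran from 47.6 to 967, and CA9 was not found with a probe set of its own. Of the leukocyte markers given here, PTPRC and CD14 were at the floor on all 24 arrays and CD3E on 18 (highest 31.1). Of the endothelial markers, VWF was at the floor on 24 and CDH5 on 23, while PECAM1 was read on every array (45.5 to 117). Of the fibroblast markers, COL1A1 was read on every array (30.3 to 145), COL3A1 was at the floor on 22, COL1A2 and DCN on 4 each with highest signals of 58.4 and 45.7, and LUM on 7. LUM reached 113 and was higher in WT8 than in PRC3 (log2 1.54, adjusted p = 0.000657). The part of these differences in the results was not tested. All log2 changes below are differences of mean log2 signals, signals are in the units of the normalized arrays, and a gene is said to be called, or to have fallen or risen, when limma's Benjamini-Hochberg adjusted p over 35013 probe sets was below 0.05.

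In WT8 against PRC3, 7 of the 39 genes fell and 0 rose: MCM2, MCM5, MCM7, POLE, FEN1, TK1 and CHAF1A. Of all 15124 genes, 2.71% were called lower and 3.27% higher in this comparison, and of the 7120 genes with a probe set at least as bright as the dimmest of the 39, 4.75%. The log2 changes of the 39 ran from -1.04 to 0.46 with a median of -0.44, and 35 lay below 0, against 47.4% of all genes and a median over all genes of 0.01. For 17 of the 39, all 3 WT8 arrays lay below all 3 PRC3 arrays, which was so for 8.77% of all genes. In whole-culture RNA, fewer cells in S phase and less of these RNAs per cell cannot be told apart. Leaving out WT8 replicate 3, the array with the raised 3 prime over 5 prime ratios, gave 9 genes called lower, all 39 below 0 and a median of -0.52. The count was 4 without WT8 replicate 1, 3 without WT8 replicate 2, 1 without PRC3 replicate 2 and 4 without PRC3 replicate 3, and 0 when the 6 arrays of PRC3 and WT8 were fitted alone. With a block for the replicate number, 13 fell, the same 7 together with MCM3, MCM6, MCM10, GINS1, RFC2 and CHAF1B, against 4.04% of all genes called lower.

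With compound 41, 6 of the 39 genes fell against DMSO and 0 rose: MCM3, MCM4, MCM5, MCM7, GINS1 and FEN1. Of all genes 1.63% were called lower and 1.71% higher, and of the 7120 brighter ones 3.05%. The changes ran from -1.02 to 0.40 with a median of -0.38, against 0.013 over all genes, and 33 of the 39 lay below 0, against 47.0% of all genes. In 22 of the 39 every compound 41 array lay below every DMSO array, which 10.4% of all genes did. With a block for the replicate number, 10 fell, the same 6 with CDT1, CDC45, GINS2 and RRM2, against 2.86% of all genes. The count was 3 without DMSO replicate 1, 2 without DMSO replicate 2, 3 without DMSO replicate 3, 1 without compound 41 replicate 1, 11 without its replicate 2 and 1 without its replicate 3. It was 0 with median scaling of the arrays, where the median of the 39 was -0.31 and 33 lay below 0, 3 without the filter on dim probe sets, and 0 with the 6 arrays of DMSO and compound 41 fitted alone.

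The other compounds had fewer calls. MCM7 alone fell with compound 40 and with compound 76, and no member was called with compound 77, where 11 had an unadjusted p below 0.05. Of all 35013 probe sets, 2672 had such a p with compound 77. The shares of all genes called lower were 0.410% with compound 40, 0.760% with compound 76 and 0.0397% with compound 77. The median change of the 39 was -0.18 with compound 40 (32 below 0), -0.21 with compound 76 (36 below 0) and -0.21 with compound 77 (31 below 0). Of all genes, 49.5%, 47.7% and 49.3% lay below 0 in these comparisons, in the same order. Groups did not overlap, with the compound lower, for 10, 10 and 12 members, against 7.85%, 8.62% and 6.92% of all genes. The compound 40 count was 0 without DMSO replicate 2, DMSO replicate 3 or replicate 2 of the compound, and 2 without compound 40 replicate 1, where the median was -0.06 and 23 lay below 0. Without both arrays that had been scaled in another way it was 0, with a median of -0.37. For compound 76 it was 0 when DMSO replicate 2 or 3, or replicate 1 or 3 of the compound, was left out, and for compound 77 it was 1 without its replicate 1. Each compound was set against the same 3 DMSO arrays, so these comparisons are not independent of each other.

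**Figure D1:**
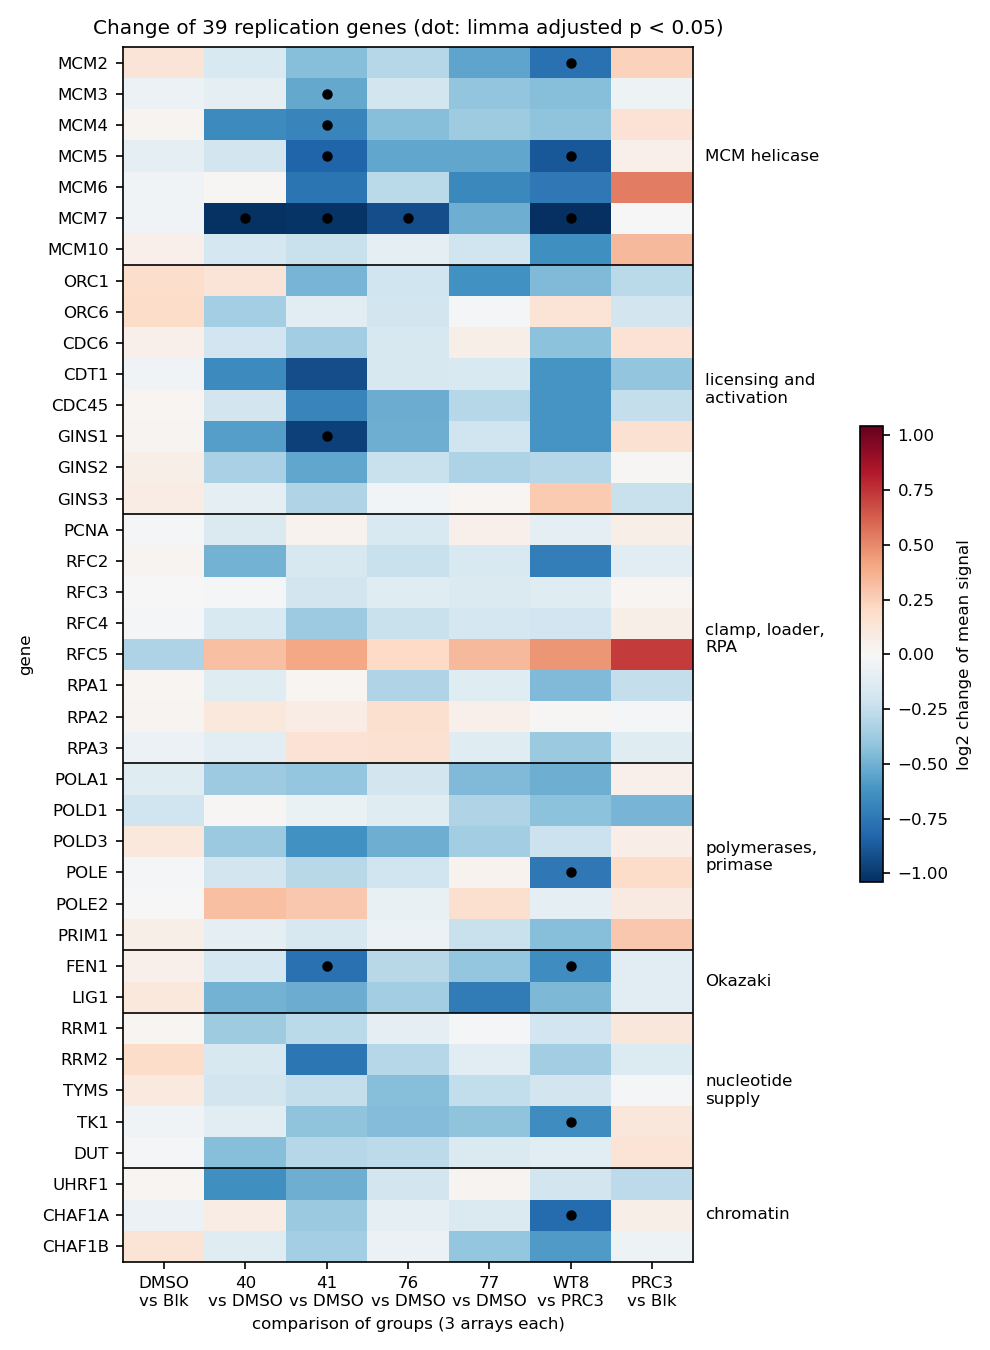
Log2 change of mean signal of the 39 genes (rows, grouped by role) in 7 comparisons (columns, 3 arrays a group), from blue (lower in the first group named) to red (higher), with a dot where the limma adjusted p was below 0.05. All 15 dots mark falls, 9 of them in the MCM helicase rows, and MCM7 carries 4.

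Of the 7 MCM genes, 3 fell in WT8 and 4 with compound 41, and all 7 lay below 0 in both comparisons, with medians of -0.74 and -0.69. MCM2 to MCM7 encode the 6 subunits of the replicative helicase ring, and MCM10 a factor that activates it. MCM7 measured 848, 1170 and 901 in replicates 1 to 3 of PRC3 and 499, 573 and 361 in WT8. It measured 883, 942 and 990 with DMSO and 311, 644 and 492 with compound 41. All WT8 arrays lay below all PRC3 arrays and all compound 41 arrays below all DMSO arrays. The falls were 2.05-fold in WT8 (log2 -1.04, SE 0.20, adjusted p = 0.00196) and 2.03-fold with compound 41 (log2 -1.02, SE 0.20, adjusted p = 0.00419), and both calls held in each of the 6 fits that left out 1 of the arrays compared. With compound 40 MCM7 measured 407, 470 and 503, and with compound 76 it measured 486, 516 and 489, again below every DMSO array. These were falls of 1.03 (SE 0.20, adjusted p = 0.0126) and 0.92 (SE 0.20, adjusted p = 0.0153) on the log2 scale. The compound 40 call ended without DMSO replicate 2 (-1.03), DMSO replicate 3 (-0.99) or compound 40 replicate 2 (-1.05), and the compound 76 call without DMSO replicate 2 (-0.91), DMSO replicate 3 (-0.88) or compound 76 replicates 1 or 3 (-0.90 each). Without both compound 40 arrays that had been scaled in another way, MCM7 differed by -1.20 (adjusted p = 0.162). Compound 77 arrays stood at 717, 554 and 712, also below DMSO, and the log2 difference was -0.51 (SE 0.20, adjusted p = 0.485). In untreated Blk cells MCM7 was at 881, 1080 and 947. A further MCM7 probe set gave -1.06 in WT8 and -0.96 with compound 41, both called, and -0.87 with compound 76 (adjusted p = 0.0790).

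MCM5 measured 493, 544 and 509 in PRC3 and 212, 310 and 336 in WT8, a 1.84-fold fall (log2 -0.88, SE 0.21, adjusted p = 0.0128). With DMSO it measured 464, 448 and 490 and with compound 41 it measured 207, 361 and 242, a 1.78-fold fall (log2 -0.83, SE 0.21, adjusted p = 0.0304). Neither pair of groups overlapped. The WT8 call ended without WT8 replicate 1 (-0.68) or PRC3 replicate 2 (-0.84), and that of compound 41 when DMSO replicate 1, 2 or 3 (-0.84, -0.86 and -0.80) or replicate 1 or 3 of the compound (-0.66 and -0.77) was left out. The other MCM5 probe set gave -0.94 and -1.04, both called. With compounds 76 and 77 MCM5 was at 325 ± 62.0 and 327 ± 69.2 (SD, n = 3), both -0.54 from DMSO and not called, while with compound 40 its arrays stood at 311, 505 and 440 and overlapped those of DMSO.

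MCM2 measured 858, 883 and 845 in PRC3 and 401, 507 and 620 in WT8, a 1.72-fold fall (log2 -0.78, SE 0.19, adjusted p = 0.0160) that lost its call without WT8 replicates 1 or 2 (-0.62 and -0.79) or PRC3 replicate 2 (-0.77). With compound 41 it measured 614, 642 and 512 against 818, 805 and 767 with DMSO, without overlap, and the difference of -0.44 was not called (adjusted p = 0.301). MCM3 fell 1.45-fold with compound 41, from 746 ± 58.7 to 520 ± 96.6 (SD, n = 3; adjusted p = 0.0397), and MCM4 fell 1.61-fold, from 1190 ± 109 to 752 ± 178 (SD, n = 3; adjusted p = 0.0361). Both calls rested on several arrays. MCM3 was no longer called when DMSO replicate 1, 2 or 3 (-0.56, -0.47 and -0.57) or replicate 1 or 3 of the compound (-0.51 and -0.41) was left out, nor was MCM4 without any of the same arrays (-0.65, -0.65, -0.77, -0.54 and -0.65). Of the 5 MCM4 probe sets, 3 were called lower with compound 41, with adjusted p-values from 0.0357 to 0.0388. In WT8 neither MCM3 (-0.44, adjusted p = 0.0740) nor MCM4 (-0.42, adjusted p = 0.227) was called. MCM6 measured 1590, 1570 and 1560 in PRC3 and 696, 1010 and 1180 in WT8, and the difference of -0.74 just missed the threshold (adjusted p = 0.0501). With the replicate block MCM3 (adjusted p = 0.0365), MCM6 (0.0425) and MCM10 (0.0219) were called in WT8. With compound 41 MCM6 was at 523, 817 and 587 against 1300, 1050 and 892 with DMSO, a difference of -0.76 (adjusted p = 0.0654). MCM10 differed by -0.64 in WT8 (adjusted p = 0.108) and by -0.23 with compound 41 (adjusted p = 0.760). Further MCM10 probe sets gave -0.46 and -0.21 in WT8 and -0.78 and -0.48 with compound 41, none called without the block. In compound 77 all 7 MCM genes lay below 0 with a median of -0.51, and 5 had an unadjusted p below 0.05, but none was called.

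**Figure D2:**
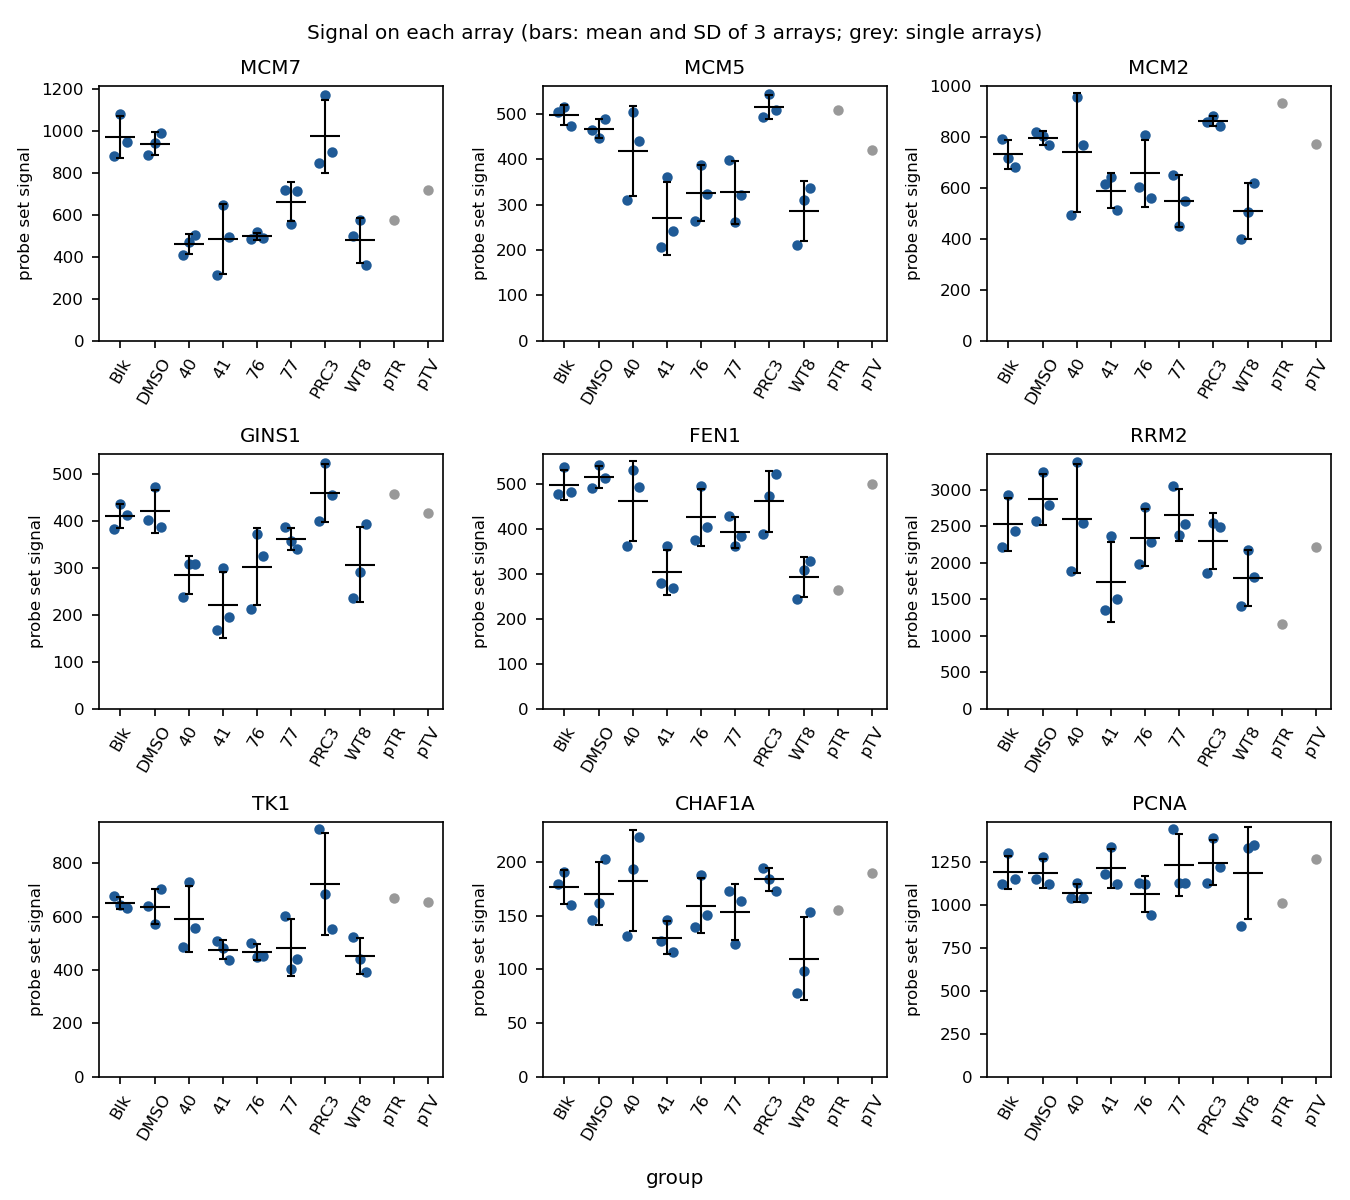
Probe set signal (linear scale from 0, each panel with its own range) of 9 genes on each array, with the mean and SD of the 3 arrays of a group as bars and the single arrays pTR and pTV in grey. MCM7 is at most 644 on every array of compounds 40, 41 and 76 and of WT8 and at least 848 on every array of Blk, DMSO and PRC3, while the PCNA arrays of compound 41 overlap those of DMSO and the WT8 arrays those of PRC3.

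The promoters of these genes often hold the E2F motif, and for 7 members the copy nearest the start site is shown, since it is a feature that many of these promoters have in common. The motif was searched as TTTCCCGC, TTTCGCGC, TTTGCCGC and TTTGGCGC on both strands, from 250 bases before to 50 bases after the first listed start of each gene, in RefSeq sequence of GRCh38.p14. It was present in 17 of the 34 members found in that table and in 3.33% of all 27305 promoters of the same length. MCM4, MCM5, RPA2, RPA3 and POLD3 were not matched, and 8 members have several listed starts. The 30 bases around a motif are printed on the gene's own strand, 5′ to 3′, with that copy in capitals. A motif on the opposite strand therefore reads as its reverse complement. The MCM6 and MCM2 windows also hold an overlapping copy on the other strand, from positions -90 and 7, which is not marked.
MCM7, chr7:100101388-100101417, minus strand, motif from position -9: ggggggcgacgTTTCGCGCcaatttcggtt
MCM3, chr6:52284728-52284757, minus strand, motif from position -4: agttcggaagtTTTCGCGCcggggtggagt
MCM2, chr3:127598402-127598431, plus strand, motif from position 3: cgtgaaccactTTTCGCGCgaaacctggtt
MCM6, chr2:135876511-135876540, minus strand, opposite motif from position -86: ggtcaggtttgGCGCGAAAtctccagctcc
GINS1, chr20:25407667-25407696, plus strand, opposite motif from position 6: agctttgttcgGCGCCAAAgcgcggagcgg
POLE, chr12:132687342-132687371, minus strand, opposite motif from position -18: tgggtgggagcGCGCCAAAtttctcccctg
PCNA, chr20:5126663-5126692, minus strand, opposite motif from position -59: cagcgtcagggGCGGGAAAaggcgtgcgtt
MCM7, MCM3 and MCM2 hold the same octamer, TTTCGCGC, within a few bases of the start. PCNA holds a motif too, although it was not called in any comparison. Among the members called in any comparison the motif was present in 5 of 8, and among the other members in 12 of 26. A CCAAT box, the letters CCAAT on both strands, was present in 58.8% of the 34 against 35.7% of all promoters, in 5 of the 8 called and in 15 of the other 26. The letters ACGTG, the core that HIF factors bind, were present in 35.3% against 21.6%, in 5 of the 8 members called and in 7 of the other 26. In the promoters of 17 mitosis genes the shares were 17.6% for the E2F motif, 88.2% for CCAAT and 35.3% for ACGTG. A match describes letters in the window and says nothing of binding in these cells.

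Of the 8 genes of origin recognition, licensing and helicase activation, GINS1 alone fell with compound 41 and none fell in WT8. With the replicate block, CDT1 (adjusted p = 0.0490), CDC45 (0.0380), GINS1 (0.00111) and GINS2 (0.0317) were called with compound 41, and GINS1 (0.0299) in WT8. All 8 lay below 0 with compound 41 (median -0.51) and 6 in WT8 (median -0.44). GINS1, a subunit of the GINS complex that joins the MCM ring and CDC45, measured 403, 474 and 387 with DMSO and 168, 301 and 196 with compound 41. Every compound 41 array lay below every DMSO array, a 1.96-fold fall (log2 -0.97, SE 0.21, adjusted p = 0.0121) whose call ended without DMSO replicate 2 (-0.88) or compound 41 replicates 1 or 3 (-0.79 and -0.90). In PRC3 GINS1 was at 400, 525 and 457 and in WT8 at 236, 292 and 395, again without overlap (-0.61, adjusted p = 0.119 without the block). Compounds 40 and 76 gave -0.57 and -0.51 for GINS1, neither called.

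CDT1, which brings the helicase to origins, was read by a probe set of the kind marked as able to bind other transcripts. It measured 207, 345 and 200 with DMSO and 112, 207 and 90.4 with compound 41, so the groups overlapped, and the difference of -0.92 was not called without the block (adjusted p = 0.137). The other CDT1 probe set gave -0.17. In WT8 CDT1 was at 107, 101 and 169 against 159, 188 and 220 in PRC3 (-0.61, adjusted p = 0.356). CDC45, the helicase cofactor, differed by -0.69 with compound 41 and by -0.61 in WT8 without overlap in either, and was called only with compound 41 and the block. ORC1 and CDC6, which take part in loading the helicase at origins, differed by -0.48 and -0.36 with compound 41 and by -0.46 and -0.43 in WT8. GINS3 and ORC6 lay above 0 in WT8 (0.27 and 0.14) and below 0 with compound 41 (-0.31 and -0.12), with SE of at least 0.26. The ORC6 probe set is of the same marked kind as that of CDT1. ORC1 had the largest difference of these 8 genes with compound 77 (-0.63, SE 0.29, adjusted p = 0.632).

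The sliding clamp, its loader and the single-strand binding proteins had 0 of 8 genes called in either comparison, or RFC2 alone in WT8 with the replicate block. At an unadjusted p below 0.05 were 1 with compound 41 and 3 in WT8, against 4639 and 5476 of all 35013 probe sets. The median of the 8 genes was 0.03 with compound 41, where 3 of 8 lay below 0, and -0.17 in WT8, where 6 did. PCNA, the clamp that holds the polymerases to DNA, measured 1150, 1280 and 1120 with DMSO and 1180, 1340 and 1120 with compound 41. The difference was 0.04, with a 95% interval from -0.26 to 0.33. In PRC3 PCNA was at 1130, 1390 and 1220 and in WT8 at 875, 1330 and 1350 (-0.09, interval -0.39 to 0.20). RPA1, RPA2 and RPA3 together form the protein that coats single-stranded DNA. They differed by 0.02, 0.08 and 0.15 with compound 41 and by -0.46, 0.01 and -0.39 in WT8.

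RFC2, a subunit of the clamp loader, measured 249, 318 and 325 in PRC3 and 163, 223 and 157 in WT8, without overlap (-0.72, SE 0.23, adjusted p = 0.0734, or 0.00371 with the replicate block). With compound 41 RFC2 was at 200, 368 and 338 against 300, 340 and 348 with DMSO, and the groups overlapped (-0.17, adjusted p = 0.847). RFC3 and RFC4 differed by -0.19 and -0.38 with compound 41 and by -0.13 and -0.20 in WT8. RFC5 was the member farthest above 0 in both comparisons, at 0.40 with compound 41 (SE 0.32) and 0.46 in WT8 (SE 0.32), and not called. Its arrays scattered widely, from 425 and 604 to 1490 in WT8 replicates 1, 2 and 3 and over 339, 659 and 667 in PRC3. With DMSO RFC5 was at 233, 271 and 267 and with compound 41 at 304, 441 and 290. The other probe sets of RFC5 went the opposite way, at -0.21 and -0.06 with compound 41 and -0.25 and -0.31 in WT8, so that its direction depends on the probe set.

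Among the 6 polymerase and primase genes, POLE fell in WT8 and none was called with compound 41. All 6 lay below 0 in WT8 (median -0.43) and 5 with compound 41 (median -0.23). POLE encodes the catalytic subunit of polymerase epsilon, which copies the leading strand. It measured 146, 115 and 122 in PRC3 and 58.7, 81.5 and 92.0 in WT8, a 1.67-fold fall without overlap (log2 -0.74, SE 0.21, adjusted p = 0.0447). It held only where WT8 replicate 3 was the array left out, and was lost without WT8 replicate 1 (-0.55), WT8 replicate 2 (-0.79) or any of the PRC3 arrays (-0.64, -0.81 and -0.77). With compound 41 POLE was at 88.8, 96.8 and 84.1 against 86.9, 129 and 118 with DMSO, with overlap (-0.29, adjusted p = 0.634). POLD3, an accessory subunit of polymerase delta, measured 191, 232 and 203 with DMSO and 120, 178 and 114 with compound 41. All 3 compound 41 arrays were lower, but the difference of -0.63 was not called (SE 0.22, adjusted p = 0.155), and in WT8 POLD3 was at 150, 173 and 200 against 201, 214 and 193 in PRC3 (-0.22). POLA1, the polymerase that extends primers with PRIM1 as its primase, differed by -0.40 with compound 41 and -0.51 in WT8, and PRIM1 by -0.17 and -0.44. POLE2 was the exception with compound 41, at 0.28 (SE 0.18), against -0.09 in WT8.

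FEN1, the nuclease that trims the flaps of Okazaki fragments, fell in both comparisons. It measured 492, 541 and 514 with DMSO and 280, 361 and 269 with compound 41, a 1.71-fold fall (log2 -0.78, SE 0.16, adjusted p = 0.00747). In PRC3 FEN1 was at 389, 473 and 523 and in WT8 at 244, 308 and 328, a 1.57-fold fall (log2 -0.65, SE 0.16, adjusted p = 0.0162). Neither pair of groups overlapped, and both SDs of the 2 lower groups were at most 50.3. The compound 41 call ended without compound 41 replicates 1 or 3 (-0.73 and -0.70), and the WT8 call without WT8 replicate 1 (-0.53) or PRC3 replicates 2 or 3 (-0.63 and -0.56). A further FEN1 probe set gave -0.49 and -0.39 and was not called. With compound 40 FEN1 was at 362, 531 and 494, with 76 at 376, 496 and 404 and with 77 at 429, 362 and 385, none of them called. LIG1, the ligase that seals the fragments, differed by -0.52 with compound 41 and -0.47 in WT8, without overlap in either. Its largest difference was with compound 77, where it was at 86.7, 72.2 and 90.4 against 128, 136 and 150 with DMSO, without overlap (-0.73, SE 0.18, adjusted p = 0.141).

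All 5 genes of nucleotide supply lay below 0 in both comparisons, with medians of -0.30 with compound 41 and -0.20 in WT8, and TK1 in WT8 was the only one called without the block. TK1, the thymidine kinase of dividing cells, measured 927, 685 and 552 in PRC3 and 523, 443 and 392 in WT8, a 1.57-fold fall without overlap (log2 -0.65, SE 0.17, adjusted p = 0.0301). It was not called when PRC3 replicate 1 or 2 (-0.45 and -0.67) or WT8 replicate 2 or 3 (-0.64 and -0.55) was left out. The other TK1 probe set was not called in WT8 (-0.46, adjusted p = 0.0868). With compound 41 TK1 was at 508, 482 and 439 against 638, 571 and 703 with DMSO, without overlap (-0.42, adjusted p = 0.272). RRM2, the S phase subunit of ribonucleotide reductase, measured 2570, 3250 and 2790 with DMSO and 1350, 2370 and 1510 with compound 41. The groups did not overlap, and the difference of -0.75 missed the threshold (SE 0.21, adjusted p = 0.0572), or was called with the replicate block (adjusted p = 0.00304). In PRC3 RRM2 was at 1860, 2550 and 2490 and in WT8 at 1410, 2180 and 1800, with overlap (-0.36, adjusted p = 0.445). The other RRM2 probe set gave -0.56 with compound 41 (adjusted p = 0.409) and -0.03 in WT8, neither called without the block. Each of the 5 genes had all 3 compound 41 arrays below all DMSO arrays, as 10.4% of all genes did. In WT8 against PRC3 this was so for 1 of the 5, against 8.77% of all genes. The calls of RRM1, the large subunit of the reductase, of DUT, which removes dUTP, and of TYMS depended on the probe set. For DUT the probe set used, also of the kind marked as able to bind other transcripts, gave -0.30 with compound 41 and -0.12 in WT8. Another DUT probe set was called lower in both (-0.48, adjusted p = 0.0354, and -0.49, adjusted p = 0.0202) and the third only with compound 41 (-0.57, adjusted p = 0.0498). For RRM1 the probe set used gave -0.20 in WT8 and another was called at -0.52 (adjusted p = 0.0363). TYMS, which makes thymidylate, differed by -0.25 with compound 41 and by -0.19 in WT8, while another TYMS probe set gave -0.46 (adjusted p = 0.0593) and was called in WT8 at -0.45 (adjusted p = 0.0475).

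Of the 3 genes that restore chromatin behind the fork, CHAF1A fell in WT8. CHAF1A and CHAF1B encode subunits of the histone chaperone CAF-1, and UHRF1 brings the maintenance DNA methyltransferase to new DNA. CHAF1A measured 194, 184 and 173 in PRC3 and 78.3, 98.1 and 153 in WT8, a 1.74-fold fall without overlap (log2 -0.80, SE 0.22, adjusted p = 0.0411), though its probe set is again of the kind marked as able to bind other transcripts. This call too was lost without WT8 replicate 1 (-0.58), WT8 replicate 2 (-0.74) or any of the PRC3 arrays (-0.76, -0.79 and -0.84). Further CHAF1A probe sets gave -0.53 (adjusted p = 0.284) and -0.76 (adjusted p = 0.103) in WT8. With compound 41 CHAF1A was at 126, 146 and 116 against 146, 162 and 203 with DMSO (-0.39, adjusted p = 0.495). CHAF1B just missed the threshold in WT8 (-0.59, SE 0.18, adjusted p = 0.0549, or 0.0344 with the replicate block) and differed by -0.35 with compound 41. UHRF1 measured 619, 800 and 663 with DMSO, 370, 677 and 450 with compound 41 and 430, 550 and 369 with compound 40. The compound 40 arrays all lay below DMSO (-0.64, SE 0.19, adjusted p = 0.142), while the compound 41 arrays overlapped it (-0.51, adjusted p = 0.196). In WT8 UHRF1 was at 389, 494 and 628 against 506, 598 and 596 in PRC3 (-0.19).

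Compound 41 against DMSO and WT8 against PRC3 share no array, so their changes can be set side by side. Of the 39 genes, 31 (79.5%) lay below 0 in both, against 24.5% of all genes, 2 with compound 41 only, 4 in WT8 only and 2, RFC5 and RPA2, in neither. MCM5, MCM7 and FEN1 fell in both. Across the 39 genes the changes had a Pearson r of 0.60 and a Spearman rho of 0.54, against a Pearson r of 0.18 over all genes. Genes are not independent replicates, and within a comparison all of them share the same 6 arrays. The difference between the 2 changes was itself fitted, and limma called 0 members where it called 2.65% of all genes. At an unadjusted p below 0.05 were 4337 of all 35013 probe sets and 1 member, whose adjusted p of 0.219 was the smallest. That member was RPA3, at 0.54 (95% interval 0.13 to 0.96). The median 95% interval reached 0.56 to either side, so differences smaller than that were not resolved.

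**Figure D3:**
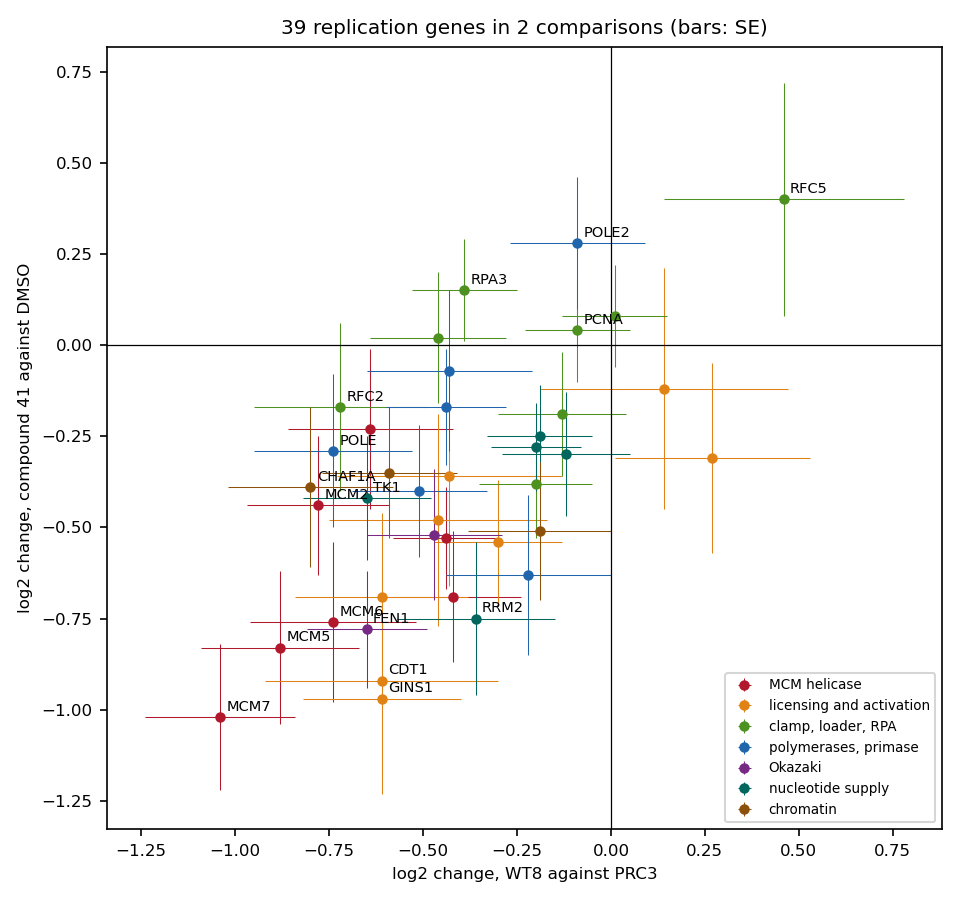
Log2 change of each of the 39 genes with compound 41 against DMSO (vertical) and in WT8 against PRC3 (horizontal), coloured by role, with SE as bars. Of the points, 31 lie at the lower left, MCM7 and MCM5 are farthest from 0, and RFC5 is at the upper right.

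The 4 compounds were compared with each other in 6 pairs, without known doses or times, so a difference may be one of dose. limma called 0 of the 39 in each pair, with p-values adjusted over all probe sets. Of all genes it called 0.727% for 40 against 41, 0.159% for 40 against 76, 0.575% for 40 against 77, 0.152% for 41 against 76, 0.661% for 41 against 77 and 0.668% for 76 against 77. At an unadjusted p below 0.05 there were 7 for 40 against 41, 3 for 40 against 76, 6 for 40 against 77, 6 for 41 against 76, 7 for 41 against 77 and 0 for 76 against 77. Of all 35013 probe sets, 4152, 3302, 3920, 1927, 2961 and 2514 had such a p in these pairs, in the same order. The member with the smallest adjusted p was FEN1 for 40 against 41 (0.60, 95% interval 0.27 to 0.93, adjusted p = 0.0956) and for 41 against 76 (-0.49, interval -0.82 to -0.16, adjusted p = 0.516). For 41 against 77 it was GINS1 (-0.75, interval -1.19 to -0.31, adjusted p = 0.159). UHRF1 was that member for 40 against 77 (-0.67, interval -1.07 to -0.27, adjusted p = 0.148) and for 40 against 76 (-0.44, interval -0.84 to -0.04, adjusted p = 0.468), and LIG1 for 76 against 77 (0.37, adjusted p = 0.703). The median interval reached 0.40 to either side, so these pairs are not shown to act alike on the 39 genes.

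No member was called in the vehicle or the control subline against untreated cells. In DMSO against Blk limma called 0 members, 0 had an unadjusted p below 0.05, and the changes ran from -0.32 to 0.19 with a median of 0.02. Of all genes 0% were called there, and of 35013 probe sets 794 had an unadjusted p below 0.05. In PRC3 against Blk limma again called 0 members, with a median of 0.02, against 0.912% of all genes called lower and 0.476% higher. Of 35013 probe sets 3912 had an unadjusted p below 0.05 there. The 3 members among them were MCM6 (1570 in PRC3 and 1100 in Blk, log2 0.53, adjusted p = 0.329), RFC5 (0.73, adjusted p = 0.370) and POLD1 (-0.48, adjusted p = 0.423). POLD1 encodes the catalytic subunit of polymerase delta and differed by -0.07 with compound 41 and -0.43 in WT8.

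The mean of the 39 genes varied among arrays of a group. Taken as the difference from the mean of the 24 arrays on the log2 scale, it was -0.331, 0.056 and -0.305 in compound 41 replicates 1 to 3, and -0.453, -0.201 and -0.009 in WT8. DMSO stood at 0.110, 0.280 and 0.166 and PRC3 at 0.101, 0.258 and 0.188. Compound 41 replicate 2 and WT8 replicate 3 were thus nearest to their controls, and no array of either group reached those of its control. The arrays of compound 40 were at -0.218, 0.092 and 0.021, those of compound 76 at -0.169, 0.139 and -0.110 and those of compound 77 at 0.077, -0.176 and -0.028. All arrays of compounds 40 and 77 also lay below all DMSO arrays, while replicate 2 of compound 76 lay above DMSO replicate 1.

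**Figure D4:**
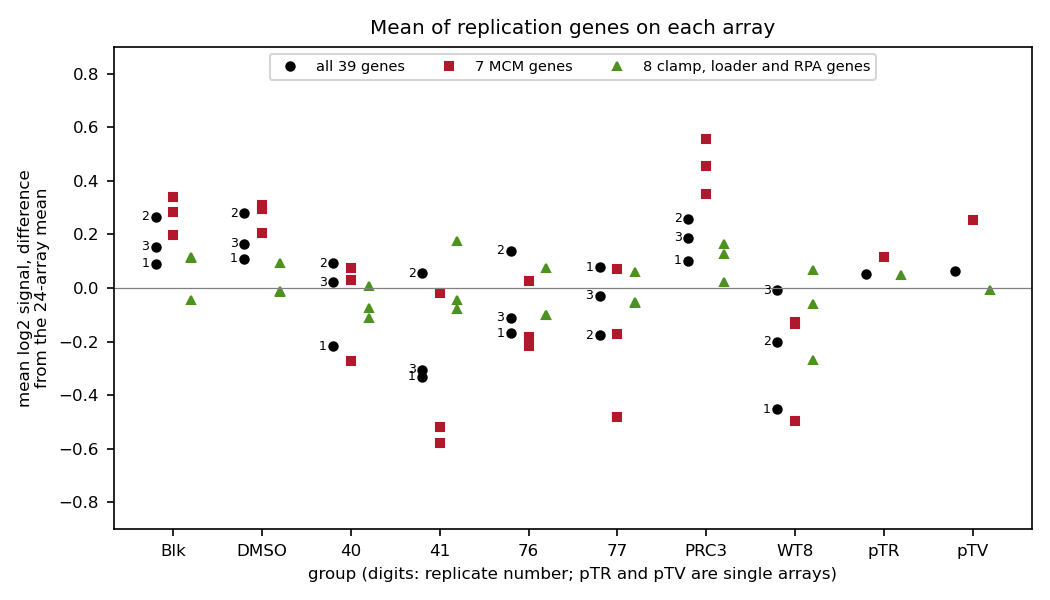
Mean log2 signal on each array of all 39 genes (black circles, with replicate numbers), of the 7 MCM genes (red squares) and of the 8 clamp, loader and RPA genes (green triangles), as the difference from the mean over the 24 replicated arrays. For the 39 genes every array of compounds 40, 41 and 77 and of WT8 lies below every array of its control, and the MCM genes are spread over a wider range than the clamp, loader and RPA genes.

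The arrays pTR and pTV could be compared without a test, since each is 1 array. The median log2 ratio of pTR to pTV was 0.03 over the 39 genes and 0.009 over all genes, and 17 of the 39 lay below 0, against 42.4% of all genes. With median scaling it was 0.33, where that of all genes was 0.18. At least 1.5-fold lower in pTR were RRM2 (1160 against 2210), FEN1 (264 against 500) and POLE (85 against 146), 3 of 39 where 12.6% of all genes were. At least 1.5-fold higher were POLE2 (178 against 86.7) and DUT (1910 against 1260), 2 of 39 where 18.4% of all genes were. MCM7 was at 576 and 717 and MCM5 at 509 and 420.

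Other genes of the pathway were taken from lists made for this description. With compound 41, called members numbered 1 of 14, 1 of 17, 1 of 5 and 3 of 6 over the 4 lists below, where 3.34% of all genes were called in either direction. In WT8 they numbered 0 of 14, 2 of 17, 1 of 5 and 1 of 6, where 5.98% were. Of the 14 further origin and licensing genes, GMNN, the inhibitor of CDT1, fell with compound 41 (-0.73, adjusted p = 0.0493), and the median was -0.21 with compound 41 and -0.28 in WT8, where 0 were called and 5 had an unadjusted p below 0.05. Of the 17 further fork and polymerase genes, PCLAF, a PCNA-binding factor, fell with compound 41 (-0.64, adjusted p = 0.0166). In WT8 RNASEH2A, a subunit of the nuclease that removes RNA from DNA, fell (-0.46, adjusted p = 0.0277) and POLE4, a small subunit of polymerase epsilon, rose 4.01-fold (log2 2.00, adjusted p = 1.41e-06). POLE4 measured 42.3, 69.5 and 90.5 in PRC3, 241, 293 and 244 in WT8 and 206, 290 and 204 in Blk. PRC3 was thus the group that stood apart, with POLE4 lower than in Blk as well (-1.84, adjusted p = 1.45e-05). Of the 6 further S phase chromatin genes, ASF1B, a histone chaperone, fell with compound 41 (-0.80, adjusted p = 0.00295) and in WT8 (-0.80, adjusted p = 0.00145), and HELLS, a chromatin remodeller, fell with compound 41 (-0.91, adjusted p = 0.0315). ASF1A, the paralog of ASF1B, rose with compounds 40 (0.62, adjusted p = 0.0248), 41 (0.91, adjusted p = 0.000230) and 76 (0.89, adjusted p = 0.000346). Of 5 measured genes among 7 more of nucleotide supply, RRM2B, the reductase subunit induced by p53, rose with compound 41 (1.02, adjusted p = 0.0293), and the nucleoside transporter SLC29A1 fell in WT8 (-0.96, adjusted p = 0.0189).

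The genes that govern entry into S phase include inhibitors of it, and those called were mostly lower. Of 23 measured G1/S genes, 5 fell and 1 rose with compound 41 (median -0.28) and 3 fell in WT8 (median -0.32). Of all genes, 1.63% were called lower and 1.71% higher with compound 41, and 2.71% lower and 3.27% higher in WT8. CCND1, which encodes cyclin D1, fell by 3.25 on the log2 scale in WT8 (adjusted p = 2.54e-10) and by 1.10 with compound 41 (adjusted p = 0.00172). On the single arrays CCND1 was at 107 in pTR and 817 in pTV. CCNA2, the S phase cyclin, fell by 0.69 in WT8 and by 0.92 with compound 41, and E2F7, a repressor of the E2F family, by 1.15 and 0.88. CDKN1A, the inhibitor p21, rose by 1.97 with compound 41 (adjusted p = 0.00392), where it measured 1840, 926 and 1380 against 580, 203 and 335 with DMSO. Of 20 mitosis genes, which mark another phase of the cycle, 9 fell with compound 41 (median -0.52, all 20 below 0) and 6 in WT8 (median -0.32, 19 below 0). Among all genes, 47% lay below 0 with compound 41 and 47.4% in WT8. The S phase genes were therefore not the only cell cycle genes called lower, and whether they differ from the mitosis genes was not tested.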

How the data were processed

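RNA was harvested with a phenol reagent, treated with DNase, column-purified and hybridised as biotin-labelled cRNA, per the labels' protocols. Per probe set the authors deposited a linear signal intensity, and the submitters' processing notes name MAS5, a method that summarises the probes of each array by itself. Not given in the sources used here are its version, scaling target and genome build. A floor of 20 and a ceiling of 16000 stand in the labels, but 45.5% of the deposited values lie below 20. The 26 arrays were quantile normalized without 62 control probe sets, limited to the range from 20 to 16000 and put on the log2 scale. A probe set was kept where at least 3 of 24 arrays reached their median (35013 of 54613). Quantile normalization gives all arrays 1 distribution, so a shift of all genes would not be seen. Each gene is read by the brightest, over the 24 arrays, of the probe sets that list it alone. Gene names came from the platform annotation; of 41097 probe sets with 1 gene, 41043 were found in the RefSeq table of GRCh38.p14 and 0 symbols changed.

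Comparisons used limma 3.58.1 in R 4.3.3 (lmFit, eBayes with a trend) on 24 arrays, with 16 residual degrees of freedom and Benjamini-Hochberg adjustment. The method was tested on simulated data. Values are means, with SD over 3 arrays; the number of arrays limits the precision. No arrays were identical, and the highest correlation of 2 arrays was 0.978. Members and lists were chosen with earlier results of these data known. Per-array values are given for members called in at least 2 comparisons and, in each role, for the member with the largest change in WT8 and with compound 41; a few others, chosen after their values were seen, are given beside them. The alternatives were median scaling, signals as deposited, no filter on dim probe sets, a floor of 10, a fit of the groups compared alone, the replicate number as a block, the mean of all probe sets of a gene, and leaving out arrays. Deviations of same-numbered arrays correlated above 0.1 in each pair for 41 against DMSO (0.21, 0.19 and 0.17 for replicates 1 to 3) and WT8 against PRC3 (0.46, 0.11 and 0.35). The fit with the replicate number as a block is therefore given beside the main one for these. It used all 24 arrays, so each number had 1 effect shared by all 8 groups and no 2 groups were paired by themselves. Correlations were also all above 0.1 for 76 against DMSO (0.27, 0.18 and 0.18), DMSO against Blk (0.29, 0.21 and 0.15) and 41 against 76 (0.19, 0.14 and 0.11). In the other pairs of groups compared not all were above 0.1, such as PRC3 with Blk (0.26, 0.06 and 0.01).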

Additional observations from a re-analysis of the deposited data

How the results depend on the processing

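No member changed direction under an alternative in the comparison where it was called. The counts of called members that moved were as follows. Median scaling left 0 with compounds 40, 41 and 76, no filter on dim probe sets left 0, 3 and 0 for these compounds, and the fit of the groups compared alone left 0 with compounds 40 and 41 and 0 in WT8. The mean of all probe sets of a gene gave 2 with compound 76, and leaving out both arrays of compound 40 that had been scaled in another way gave 0 with compound 40. The replicate block gave 10 with compound 41 and 13 in WT8. It gave 2 in compound 40 against 41 (FEN1 and RRM2, higher with 40), where 1.82% of all genes were called in either direction with the block. In compound 41 against 77 it gave 2 (GINS1 and RRM2, lower with 41), where 1.3% of all genes were. In these 2 pairs of compounds the same-numbered arrays did not all correlate above 0.1. The block moved no other count of called members by over 1.5 times. Leaving out 1 array at a time gave 0 to 2 with compound 40, 1 to 11 with compound 41, 0 to 1 with compounds 76 and 77, 1 to 9 in WT8, 0 to 1 in compounds 40 against 41, 40 against 77 and 41 against 77, and 0 to 1 for the difference between the compound 41 and WT8 changes. The median log2 ratio of pTR to pTV moved from 0.03 to 0.33 with median scaling. Of the 15 calls of single members, 15 held with a floor of 10 and 15 with the block, 13 with signals as deposited, 13 with the mean of all probe sets, 7 without the filter, 5 with median scaling and 1 with the groups fitted alone, which leaves fewer arrays for the spread. A median SE of 0.19 limits what 3 arrays a group can resolve.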
